A study of Homo sapiens with 30 samples.

Results

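Heparan sulfate is a sulfated sugar chain that cells attach to core proteins such as syndecans and glypicans. 10 genes of this pathway were followed here: the 6-O-sulfotransferases HS6ST1, HS6ST2 and HS6ST3, the 2-O-sulfotransferase HS2ST1, the 3-O-sulfotransferase HS3ST1, the N-deacetylase and N-sulfotransferase NDST1, the cell surface core proteins SDC1, SDC4 and GPC1, and the extracellular 6-O-endosulfatase SULF2. HS6ST3 was selected on its near loss from the RBPMS knockout libraries, and the other 9 genes were added as its relatives by function. The knockout values of HS6ST3 are therefore given as a description with no test. The 10 genes were found among 60612 rows of the knockout count table and 56303 rows of each of the overexpression and knockdown tables.

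The cells were 5637, an established human bladder carcinoma line. RBPMS, an RNA-binding protein that regulates splicing, was knocked out in groups KO1 and KO2, which were set against the wild-type groups WT1 and WT2 of the same number. The study's text speaks of expanding single clones for its knockouts, so the knockout and the clone cannot be told apart within a group. ANKRD10, an ankyrin repeat protein whose splice forms the study names ANKRD10-1 and ANKRD10-2, was overexpressed as either form against Vector, or lowered with siRNAs labelled siANKRD10-1 and siANKRD10-2 against siNC. The labels name 5637 cells for every group and do not say whether any ANKRD10 group also carried the RBPMS knockout. The study's text, however, places its ANKRD10-2 knockdown and ANKRD10-1 overexpression in RBPMS-knockout 5637 cells and the other manipulations in unmodified cells, and it does not state the background of Vector or siNC. The comparisons of these groups, and those between the forms and between the siRNAs, may therefore also compare cell backgrounds, which cannot be told apart here. RBPMS mRNA did not pass the test in ANKRD10-1 against Vector (log2 fold change -0.19, edgeR adjusted p = 0.472) or in siANKRD10-2 against siNC (0.03, edgeR adjusted p = 0.894). Each of these tests uses a control of unstated background, so it cannot show the background of either group. Each of the 10 groups held 3 libraries of polyadenylated RNA, 30 in all, and nothing in the labels says that libraries of a group came from separate cultures, so p-values measure the spread between these libraries. Bulk RNA also cannot tell fewer expressing cells from less RNA per cell.

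Assigned read counts per library ran from 44593108 to 69723937 in the knockout experiment, from 31736779 to 47493499 in the overexpression experiment and from 28511029 to 32784584 in the knockdown experiment. RBPMS mRNA fell by 1.44 (SE 0.07, edgeR adjusted p = 1.25e-07) on the log2 scale in KO1 and by 1.09 (SE 0.06, edgeR adjusted p = 5.07e-08) in KO2, and was not lost. ANKRD10 was higher in every overexpression library than in every Vector library, by 0.67 for ANKRD10-1 and 0.41 for ANKRD10-2 (log2, edgeR adjusted p = 4.44e-09 and 8.29e-05), and fell by 0.24 and 0.25 with siANKRD10-1 and siANKRD10-2 (edgeR adjusted p = 0.0159 and 0.00122). In the knockouts ANKRD10 fell further, at -1.18 in KO1 (edgeR adjusted p = 6.55e-08) and -0.76 in KO2 (edgeR adjusted p = 3.98e-08). Of 11 urothelial and epithelial markers, 9 or 10 exceeded 1 CPM in every library of an experiment. Of 9 markers of other cell types, PTPRC and CD3E, of leukocytes, were among those at 0 in every knockout-experiment library, whereas COL1A1 was abundant. Of these 9 markers, 3 were abundant enough to test. In KO1 1 was higher and 1 lower, against 36.1% of all genes called, and in KO2 1 was higher and 0 lower, against 38.5%. The higher one was PECAM1, of endothelium, in KO1 (log2 fold change 1.44, edgeR adjusted p = 0.00332) and KO2 (1.46, edgeR adjusted p = 0.0245). Its group means were 1.65 and 1.33 CPM against 0.604 and 0.486 CPM in WT1 and WT2.

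The chain is built in the Golgi on a linker attached to a core protein, is lengthened by EXT polymerases, and is then modified in order by NDST enzymes, an epimerase and the O-sulfotransferases. The 6-O-sulfates that HS6ST enzymes add help fibroblast growth factors and other heparin-binding ligands engage their receptors, and SULF1 and SULF2 remove these groups again at the cell surface. In the urothelium, syndecans and glypicans carry the chains that meet such ligands.

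The 6-O-sulfotransferase genes lie on different chromosomes and have unlike RefSeq promoter windows. The windows are shown because these are the members whose mRNA fell in the knockouts. Each sequence is the 250 bases before the RefSeq transcription start in GRCh38.p14, read 5′ to 3′ on the strand of the gene, with every CpG in capitals. HS6ST1 lies on the minus strand with its window at chr2:128318869-128319118, HS6ST2 on the minus strand at chrX:132961371-132961620, and HS6ST3 on the plus strand at chr13:96089857-96090106. For none of these windows were the 40 bases after the start found in an annotated transcript of the gene. The counted genes begin at other positions, HS6ST1 at 128318577, HS6ST2 at 132961395 and HS6ST3 at 96090839. The windows may therefore not be the promoters of the counted transcripts.
HS6ST1: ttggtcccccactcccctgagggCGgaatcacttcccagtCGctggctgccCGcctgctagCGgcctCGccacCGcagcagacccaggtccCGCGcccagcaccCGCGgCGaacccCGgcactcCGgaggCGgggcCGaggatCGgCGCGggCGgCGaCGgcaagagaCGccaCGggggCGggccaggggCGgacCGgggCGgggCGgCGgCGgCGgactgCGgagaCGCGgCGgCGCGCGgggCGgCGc
HS6ST2: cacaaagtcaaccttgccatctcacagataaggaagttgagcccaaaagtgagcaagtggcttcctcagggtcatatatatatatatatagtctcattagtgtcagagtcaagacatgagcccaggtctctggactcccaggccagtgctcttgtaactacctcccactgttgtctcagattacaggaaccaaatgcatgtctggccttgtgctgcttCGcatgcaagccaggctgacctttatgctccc
HS6ST3: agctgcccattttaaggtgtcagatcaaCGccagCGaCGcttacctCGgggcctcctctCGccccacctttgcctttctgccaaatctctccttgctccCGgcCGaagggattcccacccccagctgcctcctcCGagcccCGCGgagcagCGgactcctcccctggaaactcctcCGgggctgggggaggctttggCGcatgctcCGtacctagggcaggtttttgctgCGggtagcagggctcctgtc
The HS6ST1 window held 40 CpG, the HS6ST3 window 15 and the HS6ST2 window 1, against a median of 11 with quartiles of 3 and 23 over 35114 RefSeq promoter windows of the same length. Their GC contents were 80.4%, 64.4% and 48%, beside a median of 58%. Because these genes were shown for their fall, CpG content was not tested against it. The E-box letters CACGTG, the motif that MYC binds, read the same on both strands and were in 1 of 14 windows of the 10 genes, a SULF2 window, and in 6.35% of all windows.

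HS6ST3 (ENSG00000185352, chr13:96090839-96839562, plus strand) was a weakly expressed gene in wild-type cells. Its counts were 128, 191 and 189 in WT1 and 0, 0 and 0 in KO1, and 254, 163 and 177 in WT2 and 3, 0 and 4 in KO2. No KO1 library held a read, and the highest KO2 library stayed far under the lowest WT2 library. In CPM, the count scaled to library depth with TMM factors, the WT1 libraries stood at 2.46, 3.54 and 2.80 and the WT2 libraries at 3.78, 2.93 and 2.50. With a floor of 3 counts per library, HS6ST3 was at least 51.3-fold lower in KO1 than in WT1. In KO2, set at the same floor, the fold against WT2 would be 57.4, and the ratio of the means from the reads themselves was 79.3, with a 95% Poisson interval of 36.2 to 185.5 for the 7 counts that covers counting error only. These values do not order the knockouts.

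HS6ST2 (ENSG00000171004, chrX:132626016-132961395, minus strand), the relative that shares the 6-O-sulfation reaction, fell in both knockouts too. It stood at 8.69, 9.34 and 8.29 CPM in WT1 and at 0.257, 0.274 and 0.270 CPM in KO1, which is 17, 12 and 14 counts. The WT2 libraries were at 10.7, 9.94 and 10.3 CPM and the KO2 libraries at 2.00, 1.61 and 1.596 CPM. The groups did not overlap in either comparison. HS6ST2 was 32.8-fold lower in KO1 (log2 fold change -5.03, SE 0.19, edgeR adjusted p = 2.39e-08) and 5.95-fold lower in KO2 (log2 fold change -2.57, SE 0.15, edgeR adjusted p = 7e-08). The fall was deeper in KO1 than in KO2 (difference in log2 fold change -2.47, SE 0.22, edgeR adjusted p = 5.98e-07).

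HS6ST1 (ENSG00000136720, chr2:128236716-128318577, minus strand), which supplies most of the 6-O-sulfotransferase mRNA of these cells, fell less. Its WT1 libraries were at 164, 162 and 153 CPM and its KO1 libraries at 94.02, 93.25 and 99.10 CPM. In WT2 it stood at 160, 162 and 161 CPM and in KO2 at 135, 135 and 138 CPM. Every knockout library lay under every wild-type library. The log2 fold change was -0.74 in KO1 (SE 0.05, edgeR adjusted p = 1.61e-06) and -0.25 in KO2 (SE 0.03, edgeR adjusted p = 0.00011), and these differed from each other by -0.50 (SE 0.06, edgeR adjusted p = 9.26e-06). The plot of CPM by library in the knockout experiment sets these falls beside the other members.

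**Figure D1:**
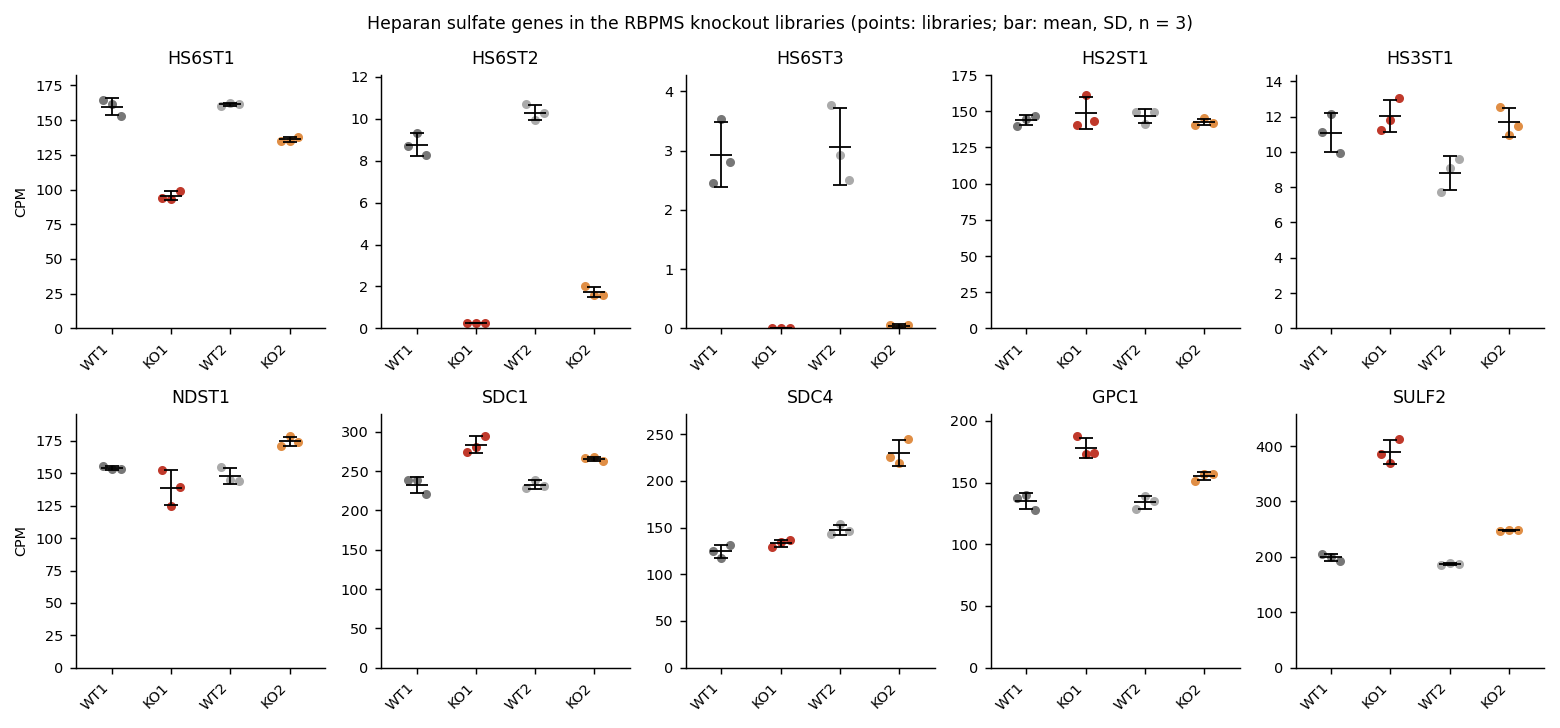
CPM of the 10 heparan sulfate genes in each of the 12 knockout-experiment libraries, 1 panel per gene with its own linear axis from 0; points are libraries, and the bar gives mean and SD (n = 3). HS6ST3 and HS6ST2 drop to or near 0 in KO1, HS6ST1 drops from 160 to 95.5 CPM on average, and SULF2 rises from 199 to 389 CPM.

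Because levels of different genes can be compared only per length, CPM was divided by gene length to give RPKM. Summed over HS6ST1, HS6ST2 and HS6ST3, RPKM was 36.2 ± 1.38 (SD, n = 3) in WT1 and 20.4 ± 0.678 in KO1. The sum was 36.9 ± 0.123 in WT2 and 29.4 ± 0.328 in KO2. Most of each drop in the sum was HS6ST1 mRNA, the most abundant of these mRNAs. HS6ST1 made up 94.1% of the sum in WT1 and 99.7% in KO1, and 93.3% in WT2 and 98.8% in KO2. HS6ST2 went from 4.90% to 0.264% of the sum in KO1 and from 5.64% to 1.19% in KO2, and HS6ST3 was 1.04% and 1.07% of the sum in WT1 and WT2.

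SULF2 (chr20:47656348-47786616, minus strand), which takes 6-O-sulfates off finished chains, moved in the opposite direction from the HS6ST genes. Its WT1 libraries were at 205, 199 and 193 CPM and its KO1 libraries at 385, 369 and 413 CPM. Its WT2 libraries were at 186, 190 and 188 CPM and its KO2 libraries at 247, 248 and 249 CPM. Every knockout library was above every wild-type library. SULF2 rose 1.95-fold in KO1 (log2 fold change 0.97, SE 0.05, edgeR adjusted p = 2.81e-07) and 1.32-fold in KO2 (log2 fold change 0.40, SE 0.03, edgeR adjusted p = 1.24e-06), with a difference between the knockouts of 0.57 (SE 0.06, edgeR adjusted p = 2.92e-06). Divided by the summed HS6ST RPKM, SULF2 went from 0.826 ± 0.0138 (SD, n = 3) in WT1 to 2.86 ± 0.0754 in KO1 and from 0.764 ± 0.00519 in WT2 to 1.27 ± 0.0126 in KO2. In the control groups of the other experiments the ratio was 2.64 ± 0.0325 in Vector and 2.67 ± 0.104 in siNC, given with no test. Ratios near that of KO1 were thus also seen in Vector and siNC, whose RBPMS background the study does not state. These are mRNA ratios, and chain sulfation was not measured. SULF2 shares 212 exon bases with the antisense gene AL354813.1 and 96 with NCOA3, 3.18% and 1.44% of its exon bases.

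**Figure D2:**
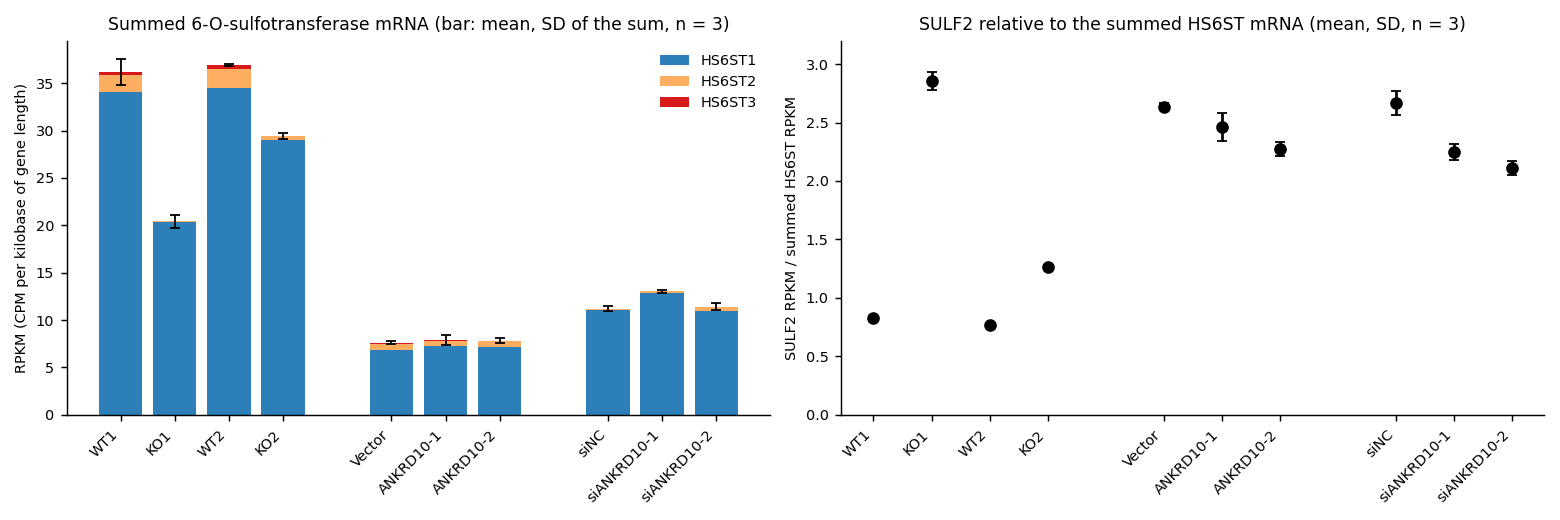
Left, stacked mean RPKM of HS6ST1, HS6ST2 and HS6ST3 in the 10 groups, with the SD of the sum (n = 3); right, SULF2 RPKM divided by that sum (mean, SD, n = 3). The sum falls from 36.2 to 20.4 in KO1 and from 36.9 to 29.4 in KO2 while the SULF2 ratio rises from 0.826 to 2.86 and from 0.764 to 1.27. The ratio stands at 2.64 in Vector and 2.67 in siNC. The 3 experiments were normalized separately, and heights in the left panel are not compared across the gaps.

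SULF1, the second 6-O-endosulfatase, was scarce and went the other way from SULF2. It stood at 1.73, 1.61 and 1.81 CPM in WT1 and 0.483, 0.410 and 0.540 CPM in KO1, and at 2.44, 1.76 and 1.88 CPM in WT2 and 0.803, 0.518 and 0.626 CPM in KO2. It fell by 1.84 (SE 0.29, edgeR adjusted p = 0.000589) in KO1 and by 1.64 (SE 0.29, edgeR adjusted p = 0.000713) in KO2 on the log2 scale.

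The sulfotransferases that act at other positions of the chain did not pass the test in KO1, while HS3ST1 and NDST1 rose in KO2. HS2ST1 (chr1:86914648-87109998, plus strand), which sulfates uronic acid, was at 140, 145 and 147 CPM in WT1, 141, 161 and 144 in KO1, 150, 141 and 149 in WT2 and 141, 145 and 142 in KO2. These ranges overlapped, and its log2 fold changes were 0.04 in KO1 (SE 0.06, edgeR adjusted p = 0.607) and -0.05 in KO2 (SE 0.04, edgeR adjusted p = 0.398). HS2ST1 shares 720 exon bases, 9.69% of its own, with the gene AC093155.3 on the same strand. How reads there were counted is not given in the sources used here.

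HS3ST1 (chr4:11393150-11429765, minus strand), whose rare 3-O-sulfates create the antithrombin-binding site, was at 11.1, 12.2 and 9.95 CPM in WT1 and 11.2, 11.8 and 13.1 in KO1 (log2 fold change 0.12, SE 0.11, edgeR adjusted p = 0.456). It was at 7.75, 9.10 and 9.60 CPM in WT2 and 12.57, 10.98 and 11.47 in KO2, with no overlap and a log2 fold change of 0.40 (SE 0.11, edgeR adjusted p = 0.0137). That call was lost without KO2 replicate 1 or WT2 replicate 1 (edgeR adjusted p = 0.0625 and 0.054), and against all 6 wild-type libraries the value was 0.23 (edgeR adjusted p = 0.159).

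NDST1 (chr5:150485818-150558211, plus strand), which opens the chain to sulfation by replacing acetyl with sulfate groups, was at 156, 153 and 153 CPM in WT1 and 153, 125 and 139 CPM in KO1 (log2 fold change -0.15, SE 0.07, edgeR adjusted p = 0.1). In KO2 it stood at 171, 179 and 174 CPM, above the 155, 145 and 144 CPM of WT2, and had risen by 0.23 (SE 0.04, edgeR adjusted p = 0.000623). The difference between the knockouts was -0.39 (SE 0.08, edgeR adjusted p = 0.0022).

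Of the core proteins that carry the chains, GPC1 and SDC1 rose in both knockouts and SDC4 in KO2. GPC1 (chr2:240435671-240468078, plus strand), a glypican tethered by a lipid anchor, was at 137, 140 and 128 CPM in WT1 and 187, 173 and 174 CPM in KO1. It was at 128, 139 and 135 CPM in WT2 and 151, 157 and 157 CPM in KO2. Neither pair overlapped, and GPC1 rose by 0.40 in KO1 (log2, SE 0.05, edgeR adjusted p = 0.000177) and by 0.21 in KO2 (SE 0.04, edgeR adjusted p = 0.00152). The difference between the knockouts, 0.19 (SE 0.07), had an edgeR adjusted p of 0.0512.

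SDC1 (chr2:20200797-20225433, minus strand), the main epithelial syndecan, was at 239, 238 and 221 CPM in WT1 and 275, 281 and 295 CPM in KO1, and at 229, 239 and 231 CPM in WT2 and 266, 268 and 263 CPM in KO2. It rose by 0.28 (log2, SE 0.05, edgeR adjusted p = 0.00114) in KO1 and by 0.19 (SE 0.03, edgeR adjusted p = 0.000744) in KO2, and the groups did not overlap. SDC4 (chr20:45325288-45348424, minus strand), a syndecan of focal adhesions, set the knockouts apart. It was at 125, 118 and 132 CPM in WT1 and 129, 135 and 136 CPM in KO1, which overlapped (log2 fold change 0.09, SE 0.05, edgeR adjusted p = 0.202). It was at 143, 153 and 146 CPM in WT2 and 226, 219 and 245 CPM in KO2, a rise of 0.64 (log2, SE 0.05, edgeR adjusted p = 4.45e-07). The difference between the knockouts was -0.54 (SE 0.07, edgeR adjusted p = 3.98e-05).

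Counted together, 5 of the 9 tested members changed in KO1, with 3 higher and 2 lower, against 36.1% of the 17865 genes tested. In KO2 8 of 9 changed, with 6 higher and 2 lower, against 38.5% of 18267 genes. With so high a background in both knockouts, these counts say little on the members as a list, and the sizes are the better description. The members' median log2 fold changes were 0.09 in KO1 and 0.21 in KO2, beside -0.00 and -0.02 over all genes. The test of the difference between the knockouts called 5 of 9 members, HS6ST1, HS6ST2, NDST1, SDC4 and SULF2, against 23.3% of genes. Between the control groups WT2 and WT1, 1 of 9 members differed, SDC4 by 0.24 (log2, SE 0.05, edgeR adjusted p = 0.0355), against 1.23% of genes, and that call was lost without any of 5 of the 6 libraries. The summed level of the markers of other cell types, mostly COL1A1, ran from 34.2 to 38.7 CPM in KO1 and from 50.4 to 53.9 CPM in WT1, while it was 50.9 to 53.5 CPM in KO2 and 51.6 to 53.2 CPM in WT2. The epithelial markers summed to 3987 to 4227 CPM in KO1, 3905 to 3973 in WT1, 3689 to 3867 in KO2 and 3788 to 4012 in WT2. Their part in the results was not tested.

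**Figure D3:**
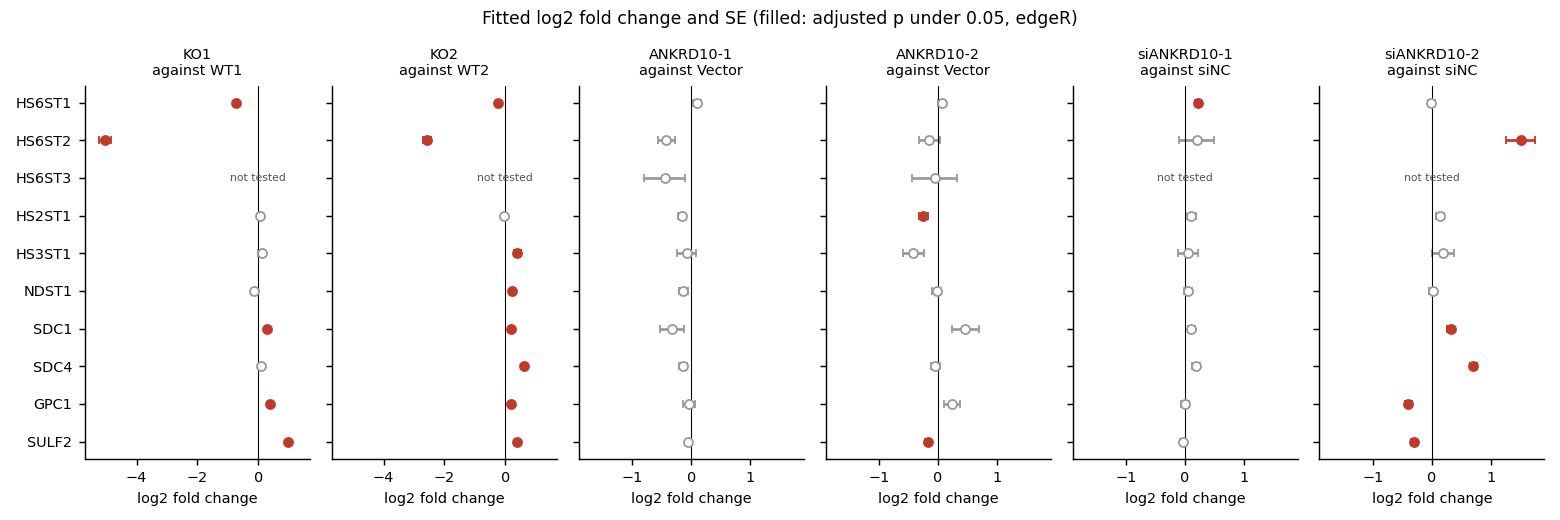
Fitted log2 fold change of the 10 genes (bar: SE) in 6 comparisons of 3 libraries against 3; filled points have an edgeR adjusted p under 0.05, and the first 2 panels have a wider axis. HS6ST2 lies at -5.03 in KO1 and -2.57 in KO2 but at 1.501 with siANKRD10-2, and HS6ST3 was not tested in the knockouts, where it was selected, or in the knockdowns, where its counts were too low.

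In wild-type cells the syndecans stood highest among the members. In WT1, SDC1 stood at 64.7 ± 2.86 RPKM (SD, n = 3), SDC4 at 47.7 ± 2.66, HS6ST1 at 34.1 ± 1.30, SULF2 at 29.9 ± 0.842, GPC1 at 20.7 ± 0.950, HS2ST1 at 19.4 ± 0.491 and NDST1 at 16.2 ± 0.142. HS6ST2 at 1.77 ± 0.108, HS3ST1 at 1.36 ± 0.136 and HS6ST3 at 0.376 ± 0.0710 formed a low group. GPC1 and HS2ST1 were the neighbours in this order whose SDs overlapped. In KO1 SULF2 stood second at 58.4 ± 3.33 RPKM after SDC1 at 78.9 ± 2.93. In KO2 SDC4 stood first at 88.0 ± 5.21 RPKM.

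The genes beside HS6ST3 were followed to show how far the low level extended along the chromosome. The 3 nearest protein-coding genes at lower coordinates, UGGT2, DNAJC3 and DZIP1, and MBNL2 and RAP2A at higher coordinates had log2 fold changes between -0.25 and 0.23 in both knockouts, of which 2 passed the test in KO1 and 5 in KO2, against 36.1% and 38.5% of all genes. The DNAJC3 call in KO1 was lost under 8 of 12 alternatives, and the RAP2A call under 2 in KO1 and 4 in KO2. OXGR1, a receptor for oxoglutarate 146.2 kb past the end of HS6ST3, was the exception. It stood at 7.23, 8.18 and 9.12 CPM in WT1 and 0.740, 0.752 and 0.752 CPM in KO1, and at 8.63, 8.13 and 10.6 CPM in WT2 and 1.11, 2.09 and 1.60 CPM in KO2. The groups did not overlap, and its log2 fold change was -3.45 (SE 0.18, edgeR adjusted p = 2.41e-07) in KO1 and -2.52 (SE 0.22, edgeR adjusted p = 2.16e-06) in KO2.

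The neighbours of HS6ST2 were chosen after its values were seen. GPC4, a glypican 338.7 kb past HS6ST2 on chromosome X and one of the further core proteins, held 3413, 3547 and 4308 counts in WT1 and 0, 16 and 0 counts in KO1. In CPM it stood at 65.5, 65.8 and 63.9 in WT1 and at 0.365 in the single KO1 library with reads (edgeR adjusted p = 2.92e-08). In KO2 it was at 36.0, 36.7 and 34.8 CPM against 69.4, 62.5 and 56.4 CPM in WT2, a fall of 0.81 (log2, SE 0.07, edgeR adjusted p = 2.23e-06). USP26, between HS6ST2 and GPC4, held 9, 10 and 8 counts in WT1 and 14, 18 and 11 in WT2 but 0 in all 6 knockout libraries, and was too low to test. FRMD7 and TFDP3 held no reads in the knockout experiment. On the other side of HS6ST2, RAP2C was at 0.06 (SE 0.06, edgeR adjusted p = 0.446) in KO1 and 0.03 (SE 0.05, edgeR adjusted p = 0.729) in KO2. MBNL3 at -1.11 (edgeR adjusted p = 0.105) and -0.74 (edgeR adjusted p = 0.24) did not pass the test, and replicate 3 of each wild-type group, at 0.800 and 0.792 CPM, stood well under the 3.66 to 4.62 CPM of the other wild-type libraries. Without WT1 replicate 3 the KO1 value was -1.57 (edgeR adjusted p = 0.000926), and without WT2 replicate 3 the KO2 value was -1.2 (edgeR adjusted p = 0.00332). Copy number was not measured.

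**Figure D4:**
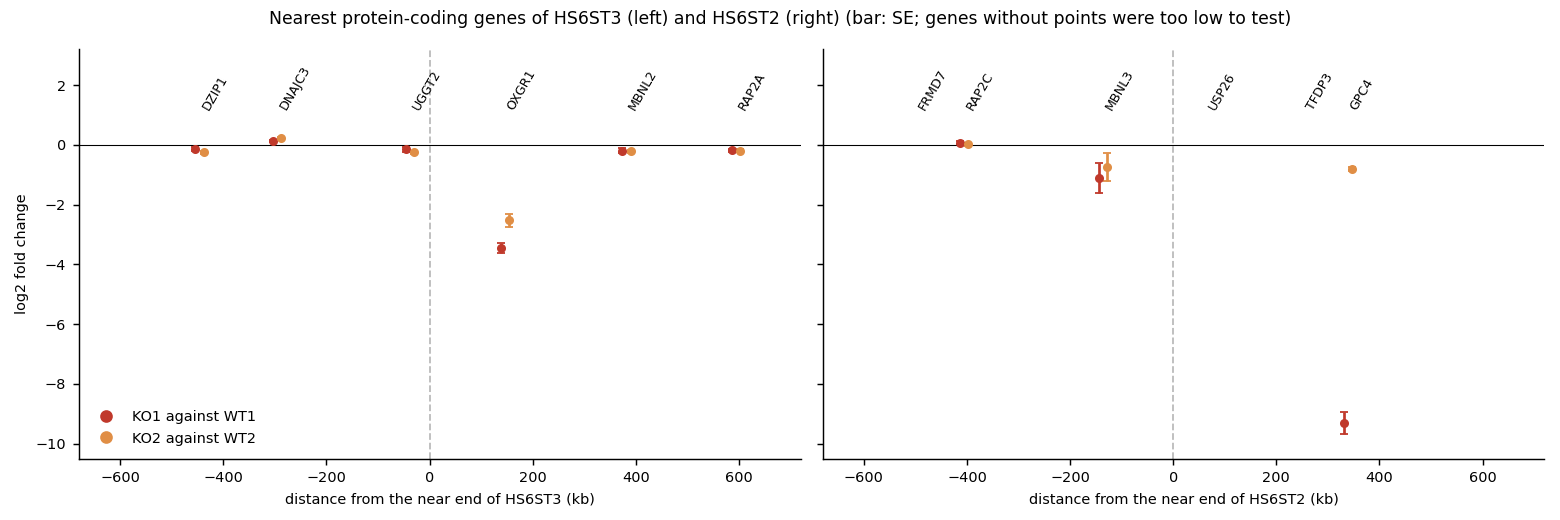
Log2 fold change (bar: SE) of the nearest 3 protein-coding genes on each side of HS6ST3 and HS6ST2 against their distance in kb, negative at lower coordinates; genes named without points were too low to test. OXGR1 (-3.45 and -2.52) and GPC4 lie apart from their neighbours, and the KO1 point of GPC4 is set by 0, 16 and 0 counts, so that its height depends on the prior count.

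The 5 genes whose log2 CPM followed HS6ST3 most closely over the 12 knockout-experiment libraries, among 14359 genes, were PELI2 (Pearson r = 0.994), CXCL6 (0.994), CROT (0.993), ENSG00000233251 (0.992) and IQGAP2 (0.990). These points fall into wild-type and knockout clusters, so the values rank genes and test nothing. CXCL6, a neutrophil chemokine, went from a mean of 6.22 CPM in WT1 to 0.0151 in KO1 and from 7.58 in WT2 to 0.0365 in KO2. PELI2, a ubiquitin ligase of innate signalling, went from 70.1 to 19.9 CPM in KO1 and from 73.6 to 19.8 in KO2. HS6ST2 had r = 0.93 and ranked 321.

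The counts of further pathway genes stand against the 36.1% of all genes called in KO1 and the 38.5% in KO2, and nothing is read from them about a list as a whole. Of 7 enzymes of linkage region synthesis, 4 changed in KO1 (3 higher, 1 lower, median log2 fold change 0.10) and 2 in KO2 (both higher, median 0.11), of which FAM20B, a xylose kinase, lost its KO2 call under 6 of 12 alternatives. B4GALT7, which adds the first galactose of the linker, rose by 0.43 (edgeR adjusted p = 0.00351) and 0.52 (edgeR adjusted p = 0.000387). XYLT1, which starts the linker, rose by 0.99 in KO1 (edgeR adjusted p = 0.0404), a call lost under 8 of 12 alternatives. All 4 tested of 5 chain polymerization genes changed in both knockouts, with 2 higher and 2 lower in KO1 and 3 higher and 1 lower in KO2 (medians 0.01 and 0.32), although EXTL3 in KO1 lost its call under 7 of 12 alternatives and EXTL2 under 3. EXT2, a subunit of the polymerase, rose by 0.24 (edgeR adjusted p = 0.00227) in KO1 and 0.66 (edgeR adjusted p = 3.03e-08) in KO2. EXTL2, a related glycosyltransferase, fell by 0.24 (edgeR adjusted p = 0.0197) and 0.57 (edgeR adjusted p = 2.83e-05).

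Among 13 other chain modification enzymes 5 were abundant enough to test. In KO1 1 rose and 2 fell (median -0.24), and in KO2 1 rose and 1 fell (median 0.12). SULF1 was a falling gene in both. NDST2 was the gene that rose in KO2, by 0.91 (SE 0.18, edgeR adjusted p = 0.00181), but it also stood 0.97 lower in WT2 than in WT1 (log2 fold change -0.97, edgeR adjusted p = 0.0106), and against all 6 wild-type libraries the KO2 value was 0.35 and no longer called. Of 8 genes that supply sulfate donor and sugar precursors, 1 rose in KO1 (UXS1, 0.35) and 2 rose and 2 fell in KO2 (medians 0.03 and 0.03). Of 8 lysosomal breakdown enzymes, 1 rose and 3 fell in KO1 (median -0.26) and SGSH alone fell in KO2, by 0.45 (median 0.10).

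Other core proteins were split in direction. Of 12 listed, 8 could be tested, of which 2 rose and 4 fell in KO1 (median -0.29) and 3 rose and 2 fell in KO2 (median 0.11). TGFBR3, the proteoglycan co-receptor for TGF-beta, fell by 1.03 (SE 0.26, edgeR adjusted p = 0.00907) in KO1 and by 1.64 (SE 0.19, edgeR adjusted p = 2.84e-05) in KO2. CD44, a part-time proteoglycan, rose by 0.46 (edgeR adjusted p = 1.13e-05) and 0.60 (edgeR adjusted p = 5.19e-08).

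The ligands that bind these chains included the largest rises among the named genes of these lists. Of 14 heparin-binding ligands and receptors, 3 of 10 tested rose in KO1 and none fell (median 0.06), and 6 of 11 rose and 3 fell in KO2 (median 0.40). HBEGF, a heparin-binding ligand of the EGF receptor, was at 10.8, 11.9 and 11.4 CPM in WT1 and 35.9, 38.4 and 39.5 in KO1, and at 12.7, 13.1 and 14.6 in WT2 and 43.3, 40.7 and 54.0 in KO2. It rose by 1.73 (SE 0.08, edgeR adjusted p = 6.65e-08) and 1.77 (SE 0.10, edgeR adjusted p = 6.5e-08). VEGFA, an angiogenic growth factor, rose by 0.81 (edgeR adjusted p = 6.16e-05) and 1.22 (edgeR adjusted p = 5.32e-08). FGFBP1, which releases fibroblast growth factors from heparan sulfate, rose by 0.94 (edgeR adjusted p = 1.62e-06) in KO1 and fell by 0.51 (edgeR adjusted p = 0.000147) in KO2. PTN, a heparin-binding cytokine, was at 0.178, 0.521 and 0.636 CPM in WT2 and at 3.28, 2.85 and 2.77 in KO2, a rise of 2.73 (SE 0.38, edgeR adjusted p = 0.000117). Of 16 chondroitin sulfate enzymes, which build the sister chain on the same linker, 6 of 15 tested rose and 3 fell in KO1 (median 0.13) and 9 rose and 2 fell in KO2 (median 0.44).

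ANKRD10 is a splicing target of RBPMS in this study, and the members were followed in the cells with altered ANKRD10. HS6ST3 was at 0.781, 0.392 and 0.950 CPM in Vector, 0.598, 0.435 and 0.548 in ANKRD10-1 and 0.419, 0.777 and 0.880 in ANKRD10-2. The groups overlapped, with log2 fold changes of -0.45 (SE 0.35, edgeR adjusted p = 0.511) and -0.06 (SE 0.38, edgeR adjusted p = 0.938). In the knockdown experiment it held 4, 4 and 0 counts in siNC, 0, 0 and 0 in siANKRD10-1 and 2, 2 and 4 in siANKRD10-2, too few for a fold or a test. HS6ST3 was already low in siNC, at a mean of 0.0819 CPM, and a difference from that level was not detectable.

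With ANKRD10-1 overexpressed, 0 of 10 members passed the edgeR test, against 6.31% of 20457 genes, with 2 at an unadjusted p under 0.05 and 0 by DESeq2. HS6ST2 was at 3.15, 3.78 and 3.49 CPM in Vector and 2.35, 2.87 and 2.54 CPM in ANKRD10-1 (log2 fold change -0.42, SE 0.15, edgeR adjusted p = 0.102). With ANKRD10-2 overexpressed, 2 of 10 fell and none rose, against 19.9% of 20177 genes. SULF2 was at 131, 131 and 138 CPM in Vector and 117, 119 and 120 CPM in ANKRD10-2, with no overlap and a log2 fold change of -0.17 (SE 0.05, edgeR adjusted p = 0.0189). HS2ST1 was at 28.5, 28.1 and 26.0 CPM in Vector and 24.7, 22.7 and 22.1 CPM in ANKRD10-2 (log2 fold change -0.25, SE 0.07, edgeR adjusted p = 0.0242). The SULF2 call was lost without ANKRD10-2 replicate 2 or 3 or Vector replicate 3 (edgeR adjusted p = 0.0511, 0.0502 and 0.0895), and the HS2ST1 call without ANKRD10-2 replicate 2 or 3 or Vector replicate 1 or 2 (edgeR adjusted p = 0.0785, 0.108, 0.0995 and 0.0763).

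SDC1 and GPC1 in the overexpression experiment depended on 1 control library and on the fit. SDC1 was at 33.5, 33.2 and 75.1 CPM in Vector, at 33.5, 43.0 and 37.3 in ANKRD10-1 and at 62.5, 65.1 and 68.0 in ANKRD10-2. Vector replicate 3 lay above every ANKRD10-2 library while the other Vector libraries lay under them. GPC1 was likewise at 38.7, 41.3 and 58.6 CPM in Vector, 44.2, 47.2 and 43.9 in ANKRD10-1 and 56.8, 46.1 and 60.1 in ANKRD10-2. With Vector replicate 3 the ANKRD10-2 log2 fold changes were 0.46 (SE 0.22, edgeR adjusted p = 0.175) for SDC1 and 0.24 (SE 0.13, edgeR adjusted p = 0.234) for GPC1. Without it they were 0.97 (edgeR adjusted p = 3.77e-08) and 0.45 (edgeR adjusted p = 0.00293), and the ANKRD10-1 values turned from -0.33 to 0.19 and from -0.04 to 0.18 without passing the test (edgeR adjusted p = 0.154 and 0.0935). With every library kept, both also passed for ANKRD10-2 with a replicate block, at 0.56 (edgeR adjusted p = 0.00352) and 0.25 (edgeR adjusted p = 0.0188), and without the filter on low counts (edgeR adjusted p = 1.65e-10 and 0.00681). Without Vector replicate 3, SDC4 with ANKRD10-1 passed the test at -0.21 (edgeR adjusted p = 0.0355). Compared directly, ANKRD10-2 stood above ANKRD10-1 for SDC1 by 0.78 (log2, SE 0.07, edgeR adjusted p = 7.95e-07) and for GPC1 by 0.27 (SE 0.08, edgeR adjusted p = 0.0339), which made 2 of 10 members against 7.26% of genes, and the GPC1 call was lost without any of 5 of the 6 libraries. The summed epithelial markers ran from 2748 to 2945 CPM in Vector, from 3102 to 3164 in ANKRD10-1 and from 3151 to 3578 in ANKRD10-2, and their part in these values was not tested.

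Both siRNA groups were set against the same siNC libraries. With siANKRD10-1, 1 of 9 tested members changed, against 10.6% of 18785 genes: HS6ST1 was at 52.04, 49.97 and 52.62 CPM in siNC and 60.5, 59.2 and 60.3 CPM in siANKRD10-1, a rise of 0.22 (log2, SE 0.06, edgeR adjusted p = 0.0188). That call was lost without siANKRD10-1 replicate 1 or 3 or siNC replicate 1 or 2 (edgeR adjusted p = 0.0929, 0.0515, 0.0584 and 0.128). With siANKRD10-2, 5 of 9 changed, 3 higher and 2 lower, against 36.3% of 18924 genes. Both the member count and the share over all genes were higher with siANKRD10-2, and nothing further is read from these counts.

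HS6ST2 rose with siANKRD10-2, from 0.852, 0.869 and 0.818 CPM in siNC to 2.67, 1.94 and 2.58 CPM, while siANKRD10-1 libraries were at 0.823, 0.826 and 1.26 CPM. The siANKRD10-2 libraries lay above all the others, at a log2 fold change of 1.501 (SE 0.24, edgeR adjusted p = 2.16e-05), and siANKRD10-1 was at 0.20 (SE 0.30, edgeR adjusted p = 0.743). These levels rest on 26 to 28 counts per siNC library. SDC4 was at 40.7, 41.8 and 43.4 CPM in siNC, 46.6, 48.2 and 48.5 in siANKRD10-1 and 68.4, 66.9 and 68.9 in siANKRD10-2. It rose by 0.70 (log2, SE 0.06, edgeR adjusted p = 3.29e-10) with siANKRD10-2 and was at 0.19 (SE 0.06, edgeR adjusted p = 0.0549) with siANKRD10-1, where it passed with all libraries in 1 fit, with the replicate block and without siNC replicate 3 (edgeR adjusted p = 0.0334, 0.0318 and 0.044).

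SDC1 rose with siANKRD10-2, from 119, 119 and 115 CPM to 149, 147 and 144 CPM (log2 fold change 0.31, SE 0.05, edgeR adjusted p = 2.64e-05). GPC1 fell, from 74.2, 71.3 and 63.3 CPM to 53.5, 53.9 and 50.9 CPM (log2 fold change -0.40, SE 0.06, edgeR adjusted p = 1.18e-05). SULF2 fell as well, from 198, 202 and 197 CPM to 155, 162 and 163 CPM (log2 fold change -0.31, SE 0.05, edgeR adjusted p = 3.09e-05). None of these groups overlapped. Among the members, SDC1 and SDC4 were thus higher and GPC1 lower with siANKRD10-2. Of 8 other core proteins tested, 3 were higher and 2 lower, against 36.3% of all genes called. The glypicans GPC2 (log2 fold change 0.83, edgeR adjusted p = 6.98e-06) and GPC4 (0.54, edgeR adjusted p = 1.77e-05) were among the higher ones.

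**Figure D5:**
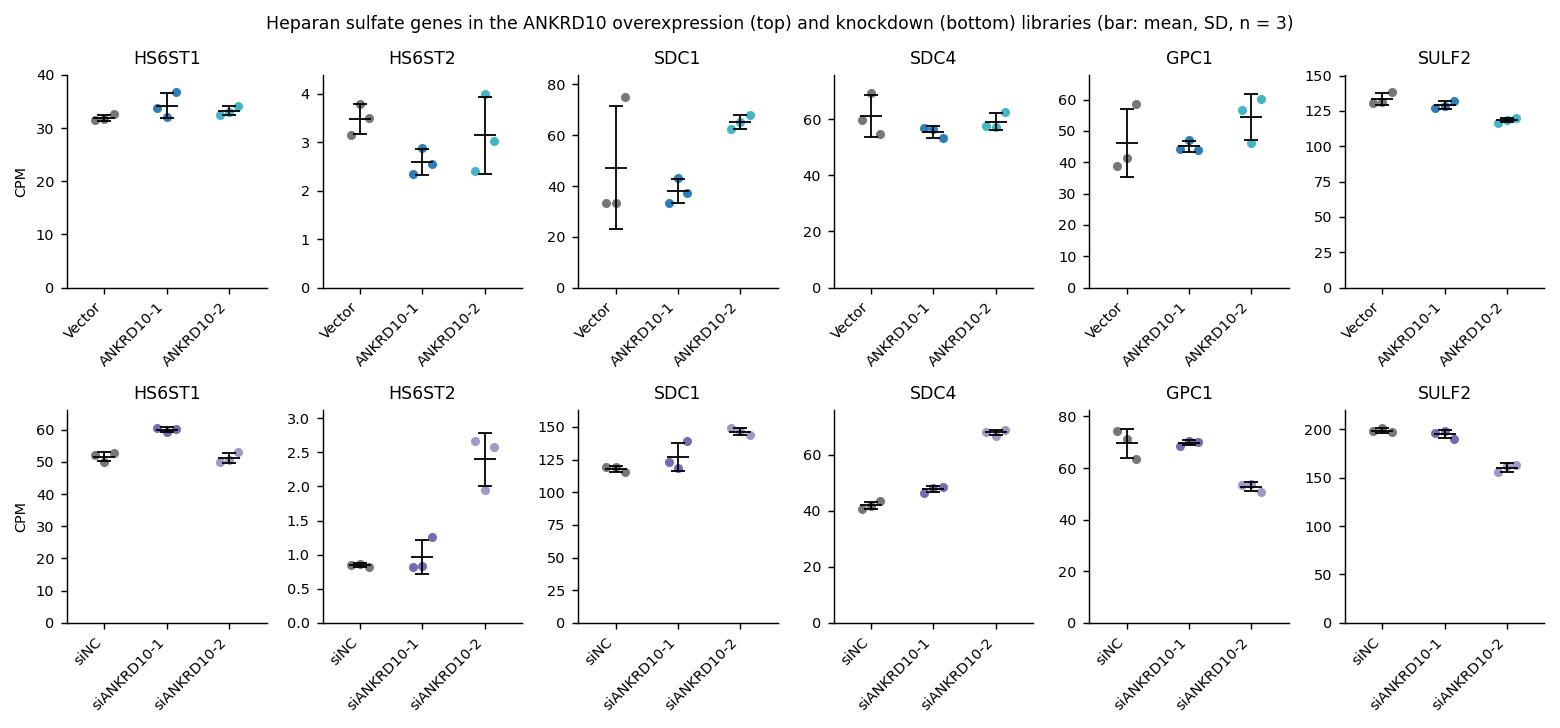
CPM of 6 members in each library of the ANKRD10 overexpression (top) and knockdown (bottom) experiments, with linear axes from 0; points are libraries and the bar gives mean and SD (n = 3). Vector replicate 3 stands apart for SDC1 (75.1 against 33.5 and 33.2 CPM), and siANKRD10-2 is the highest group for HS6ST2, SDC1 and SDC4 and the lowest for GPC1 and SULF2.

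Between the siRNAs, siANKRD10-2 differed from siANKRD10-1 in 6 of 9 members, against 37% of genes. HS6ST2 (1.31, edgeR adjusted p = 0.000194), SDC4 (0.52, edgeR adjusted p = 1.87e-07) and SDC1 (0.21, edgeR adjusted p = 0.00704) were higher, and GPC1 (-0.40, edgeR adjusted p = 6.9e-06), SULF2 (-0.28, edgeR adjusted p = 0.000199) and HS6ST1 (-0.23, edgeR adjusted p = 0.00311) were lower on the log2 scale. The SDC1 call was lost without siANKRD10-1 replicate 1 (edgeR adjusted p = 0.0595). The summed epithelial markers stood at 3264 to 3394 CPM with siANKRD10-2, 4430 to 4768 CPM with siANKRD10-1 and 5320 to 5644 CPM with siNC. Of 10 tested markers, 7 were lower under siANKRD10-2 than under siNC, where 36.3% of all genes were called and 18.7% were lower. The part of the markers in these results was not tested.

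In the wider pathway with ANKRD10-1 overexpressed, EXTL2 among the polymerization genes differed from Vector by -0.47 (log2, edgeR adjusted p = 0.00674). Among the rest, SDC3 differed by -0.24 (edgeR adjusted p = 0.016), and AGRN and ARSG also passed the test. None of 12 tested ligands and receptors or 15 tested chondroitin sulfate enzymes passed, against 6.31% of all genes called. Nothing is read from these counts about a list. With ANKRD10-2 overexpressed, SDC3 was lower than in Vector (log2 fold change -0.31, edgeR adjusted p = 0.00327). FGFBP1 was higher by 0.95 (SE 0.25, edgeR adjusted p = 0.0159), a call lost without ANKRD10-2 replicate 1 or 2 or Vector replicate 2 (edgeR adjusted p up to 0.0654). In the knockdowns FGFBP1 was at -0.59 (SE 0.12, edgeR adjusted p = 0.00325) with siANKRD10-1 and -1.75 (SE 0.15, edgeR adjusted p = 6.26e-10) with siANKRD10-2. With siANKRD10-2, SULF1 rose by 1.24 (SE 0.28, edgeR adjusted p = 0.000877), GPC4 by 0.54 (SE 0.09, edgeR adjusted p = 1.77e-05) and PTN by 1.03 (SE 0.10, edgeR adjusted p = 3.62e-09), and 3 of 11 tested ligands and receptors were higher and 5 lower, against 36.3% of all genes called. PAPSS2, which makes the sulfate donor, fell by 0.58 (edgeR adjusted p = 0.0017).

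Set side by side with no test, because each table was normalized on its own, the control levels of HS6ST2 were 8.77 ± 0.533 CPM (SD, n = 3) in WT1, 10.3 ± 0.376 in WT2, 3.47 ± 0.316 in Vector and 0.846 ± 0.0258 in siNC. HS6ST1 stood at 160 ± 6.08 CPM in WT1, 161 ± 1.15 in WT2, 31.9 ± 0.585 in Vector and 51.5 ± 1.39 in siNC. HS6ST3 stood at 2.93 ± 0.554 CPM in WT1, 3.07 ± 0.650 in WT2, 0.708 ± 0.287 in Vector and 0.0819 ± 0.0710 in siNC. In KO2 it was at 0.0387 ± 0.0338 CPM. A level near 0 was thus also seen in siNC, whose RBPMS background the study does not state. Mean RBPMS mRNA was 40.4 CPM in WT1, 43.1 in WT2, 14.9 in KO1 and 20.3 in KO2. It was 5.13 CPM in Vector, 4.50 in ANKRD10-1 and 5.40 in ANKRD10-2. In the knockdown experiment RBPMS was at 5.01 CPM in siNC, 4.65 in siANKRD10-1 and 5.11 in siANKRD10-2. The cause of the lower RBPMS levels in these experiments, controls included, was not tested.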

How the data were processed

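RNA of 5637 cells was sequenced as stranded libraries of polyadenylated RNA, 3 per group. The authors deposited raw counts of reads per gene in 3 tables, 1 per experiment, and the submitters' processing notes name Trimmomatic 0.36, featureCounts of Subread 1.5.1 and GRCh38. The strand setting of the counting is not given in the sources used here. Table coordinates and lengths were checked against GENCODE annotation of GRCh38: all 10 spans were the same, and the HS6ST2 length was 4948 bases against 5002 in the annotation.

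Each comparison was fitted with edgeR 4.0.16 (R 4.3.3) on the genes of its whole table and the libraries of its own groups only. The steps were filterByExpr (minimum count 10, total 15), TMM factors, the quasi-likelihood test and Benjamini-Hochberg adjustment over all genes tested. The threshold was 0.05 and the prior count 0.125. A p-value printed as adjusted comes from that test. CPM used TMM factors over all libraries of a table, and RPKM divides CPM by the deposited gene length. The fits were also run on simulated counts, and no result here rests on that run. Alternatives were DESeq2 1.42.0, relative log expression factors, no filter, all libraries of a table in 1 fit, a replicate block, all 6 wild-type libraries as control, and leaving out each library. The difference between the knockouts was fitted as an interaction over their 12 libraries.

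The members and gene lists were chosen with earlier results of these data known. Named were the 10 members, RBPMS and ANKRD10, the 3 nearest protein-coding genes on each side of HS6ST3 and the 5 genes most like it (log2 of CPM plus 0.1). From each list and comparison, up to 3 called genes with the largest fold changes were eligible if their mean normalized count reached 50 and the libraries of the groups did not overlap, and some of these are printed. FGFBP1 and CD44 in KO2, PECAM1 in both knockouts, SULF1 with siANKRD10-2 and the neighbours of HS6ST2 fall outside this and were named after their values were seen.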

Additional observations from a re-analysis of the deposited data

Results flagged for a closer look

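5 members had fold changes that differed between KO1 against WT1 and KO2 against WT2, by an interaction test with edgeR adjusted p-values under 0.05. The KO1 change minus the KO2 change was -2.47 for HS6ST2, -0.50 for HS6ST1, 0.57 for SULF2, -0.54 for SDC4 and -0.39 for NDST1 on the log2 scale. Each knockout group is set against its own controls, and the clones cannot be told apart from the knockouts. With 3 libraries per group, no test for single stray libraries was applied.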

How the results depend on the processing

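Of 813 alternative values of member fold changes, 746 kept their direction and their side of the threshold, 28 lost the call, 13 gained it and 26 reversed. Of 1103 such values of the other named genes, 981 kept both, 116 lost the call, 6 gained it and 0 reversed. The calls of HS6ST1, HS6ST2 and SULF2 in both knockouts held under every alternative run. Every reversed value belongs to a fold change that had not passed the test, and the cause was not tested except where fewer libraries entered by construction. Against all 6 wild-type libraries SDC4 in KO1 was -0.0307. GPC1 with siANKRD10-1 was -0.00102 with DESeq2 and -0.00103 with relative log expression factors.

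The members called with ANKRD10-1 overexpressed went from 0 to 1 without the filter on low counts, where SDC1 passed, and with ANKRD10-2 from 2 to 4. With siANKRD10-1 they went from 1 to 2 with all libraries in 1 fit, and between the overexpressed forms from 2 to 1. Between WT2 and WT1 they went from 1 to 0 without the filter, while the genes called went from 226 to 690 with DESeq2 and to 88 without the filter. In no comparison did every same-numbered pair of libraries correlate above 0.1, so the numbers were not taken as pairs. The correlations were 0.0499, 0.0234 and -0.0184 for KO1 with WT1. They were 0.0492, 0.105 and 0.127 for ANKRD10-2 with Vector, and -0.00797, 0.0313 and 0.134 for siANKRD10-1 with siNC. With the number as a replicate block, the members called were 4 with ANKRD10-2 overexpressed, 2 with siANKRD10-1 and 0 between WT2 and WT1, and unchanged in number in the other 7 comparisons. The genes called moved both ways with the block. They rose from 4017 to 4766 with ANKRD10-2 overexpressed and from 1991 to 2778 with siANKRD10-1, and fell from 6454 to 6082 in KO1 and from 6968 to 6351 between the siRNAs.

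Leaving out 1 library at a time, the genes called ranged from 700 to 1549 and the members from 0 to 1 with ANKRD10-1 overexpressed, from 2617 to 3533 and from 0 to 3 with ANKRD10-2, from 949 to 2430 and from 0 to 2 with siANKRD10-1, from 71 to 133 and from 0 to 1 between WT2 and WT1, and from 694 to 1396 and from 1 to 2 between the overexpressed forms. In KO1, the log2 fold change ranged for HS2ST1 from -0.0175 to 0.0836. With ANKRD10-1 overexpressed, the log2 fold change ranged for HS3ST1 from -0.215 to 0.0399, SDC1 from -0.523 to 0.187 and GPC1 from -0.151 to 0.177. With ANKRD10-2 overexpressed, the log2 fold change ranged for HS6ST2 from -0.34 to 0.0119, HS6ST3 from -0.328 to 0.217, NDST1 from -0.0582 to 0.024 and SDC4 from -0.12 to 0.0488. With siANKRD10-1, the log2 fold change ranged for HS3ST1 from -0.0909 to 0.172, NDST1 from -0.0114 to 0.0957, GPC1 from -0.0618 to 0.0507 and HS6ST2 from -0.0359 to 0.298. With siANKRD10-2, the log2 fold change ranged for HS6ST1 from -0.0355 to 0.00637 and NDST1 from -0.0035 to 0.0423.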
